A study of Homo sapiens with 6 samples.

Results

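The 10 genes described here encode host factors that act against retroviruses and against retroelements of the genome. They are the cytidine deaminases APOBEC3B, APOBEC3C, APOBEC3D, APOBEC3F, APOBEC3G and APOBEC3H, the nucleotide hydrolase SAMHD1, the tripartite motif proteins TRIM5 and TRIM22, and the RNA helicase MOV10. They were taken by symbol from a table of 23368 gene symbols, and all 10 were found. Expression was measured by RNA-seq in NB4, an established human cell line of acute promyelocytic leukemia that carries the PML/RARα fusion. A group of 3 libraries came from cells that were not treated (n.t.). The other 3 came from cells kept with maltonis, a synthetic derivative of maltol, at 10 µM for 24 h. Both groups share the line, its fusion and the 24 h of culture, so that the data describe 1 transformed line under 1 dose. The comparison asks which transcripts differed in amount after maltonis.

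The restriction factors act at successive steps of the retroviral and retroelement cycle. SAMHD1 hydrolyses the deoxynucleotides that reverse transcription needs, and is known above all from myeloid cells. TRIM5 binds incoming capsids, and APOBEC3 enzymes deaminate cytidines in newly made single-stranded DNA. TRIM22 represses viral transcription, and MOV10 acts on the RNA of LINE-1 and other retroelements. Several of these genes are known targets of interferon.

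Library totals ranged from 18492154 to 38205483 counts, and 3 counts in a library were worth between 0.0785 and 0.162 CPM (counts scaled to a library of 1000000). Library names carry a code that sets replicate 1 of both groups apart from replicates 2 and 3. Its meaning is not given, and the 2 sets are called batch A, with 1 library per group, and batch B, with 2 per group. The promyelocyte markers (10 genes, MPO and ELANE among them) summed to between 14342 and 16884 CPM in n.t. cells and to between 9069.6 and 9492.7 CPM after maltonis. The 3 B cell markers summed to at most 3.25 CPM. The 3 monocyte markers, with FCGR3A at or under 3 counts, summed to between 5.59 and 12.6 CPM in n.t. cells and to between 12.1 and 13.2 CPM after maltonis. The 5 T or NK cell markers summed to between 103 and 115 CPM in n.t. cells and to between 49.3 and 50.5 CPM after maltonis, with CD3E at or under 3 counts, and EPCAM and COL1A1 summed to between 10.4 and 17.6 CPM in all libraries. The part of these shifts in the results was not tested.

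Of the 10 genes, 9 passed the filter on low counts and were tested, while APOBEC3H did not. In what follows, CPM are scaled by TMM factors, and FDR is the Benjamini-Hochberg adjusted p of edgeR's quasi-likelihood test over the 13209 genes tested. At FDR < 0.01, 4 genes rose after maltonis (SAMHD1, TRIM22, MOV10 and TRIM5), 1 fell (APOBEC3C), and 4 passed in neither direction (APOBEC3B, APOBEC3D, APOBEC3F and APOBEC3G). Maltonis moved a large part of the transcriptome, so that 31.9% of all tested genes were called higher and 32.1% lower under the same rule. The median log2 fold change was 0.63 over the 9 genes and 0.01 over all tested genes. That median is the value of APOBEC3F, which was not called, and the 9 were spread from -1.19 (APOBEC3C) to 2.08 (TRIM22). The study's own fold criterion (about 2.5-fold in either direction) was met by 2 of the genes that rose, SAMHD1 and TRIM22, beside 9.96% of all tested genes, and by none that fell, beside 10.4%. In 7 of the 9 genes the libraries of the groups did not overlap in CPM, which held for 76.6% of all tested genes. In bulk RNA, a smaller share of cells with a transcript and less of it per cell cannot be told apart.

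**Figure D1:**
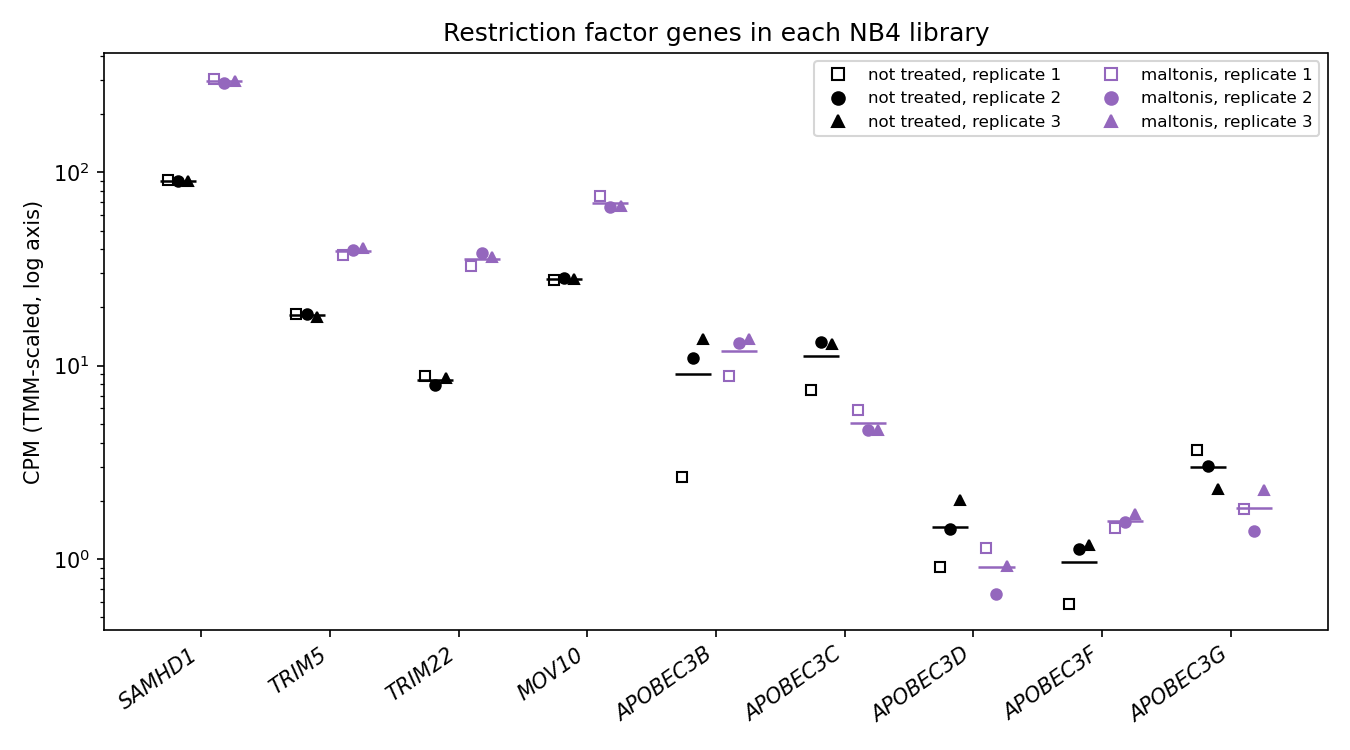
CPM (TMM-scaled, log axis) of the 9 tested genes in each library, n.t. in black and maltonis in purple, with open squares for replicate 1, circles for replicate 2, triangles for replicate 3 and a line at each mean. SAMHD1 lay near 90.5 CPM in n.t. cells and near 296 CPM after maltonis, while the APOBEC3B points of the groups overlapped. APOBEC3H, at 2 counts or fewer, is not drawn.

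SAMHD1 was the most abundant of the 10 genes and more than tripled. It is a deoxynucleotide triphosphohydrolase whose loss causes an interferon-driven inflammatory disease. SAMHD1 stood at 91.5, 89.9 and 90.0 CPM in n.t. replicates 1, 2 and 3. After maltonis SAMHD1 stood at 303, 290 and 297 CPM. Every treated library lay above every n.t. library, and the spread within a group was small beside the gap. The mean rose from 90.5 ± 0.897 to 296 ± 6.70 CPM (SD, n = 3 each), a 3.28-fold change with a log2 fold change of 1.71 (SE 0.0525, FDR = 4.35e-08). Batch A gave SAMHD1 a log2 difference of 1.73, against 1.70 from batch B, and 6.55% of all tested genes had a larger log2 fold change. SAMHD1 shares 1159 exonic bases with TLDC2 on the opposite strand, and the strand setting of the counting is not given. TLDC2 itself held 19, 29 and 30 counts in n.t. cells and 79, 117 and 76 counts after maltonis, far fewer than SAMHD1. The RefSeq promoter of SAMHD1, the 250 bases before its start and the 50 after, lies at chr20:36951659-36951958 on the minus strand (GRCh38.p14), and is shown as that of the most abundant member. It was 65.7% G or C with 22 CpG dinucleotides.
SAMHD1: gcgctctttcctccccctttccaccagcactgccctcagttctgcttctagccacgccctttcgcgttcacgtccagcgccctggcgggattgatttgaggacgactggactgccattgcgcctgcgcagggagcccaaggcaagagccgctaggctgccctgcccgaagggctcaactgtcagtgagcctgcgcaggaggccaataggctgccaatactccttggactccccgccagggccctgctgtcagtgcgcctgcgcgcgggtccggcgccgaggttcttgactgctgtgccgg

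TRIM22 had the largest fold change of the 9 tested genes. It is a tripartite motif E3 ligase, induced by interferon and by p53, that represses transcription from the HIV promoter. TRIM22 stood at 8.79, 7.98 and 8.63 CPM in n.t. replicates 1, 2 and 3. After maltonis TRIM22 stood at 32.6, 38.1 and 36.6 CPM. The groups did not overlap. The mean of TRIM22 rose 4.24-fold, from 8.46 ± 0.430 to 35.7 ± 2.84 CPM (SD, n = 3 each), with a log2 fold change of 2.08 (SE 0.0901, FDR = 2.00e-07). Batch A gave it a log2 difference of 1.89, against 2.17 from batch B. A share of 12.1% of the 50-base words of TRIM22 also occurs in another counted gene, mostly in the olfactory receptor gene OR56B1, with which it shares 642 exonic bases.

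TRIM5 lies close to TRIM22 on chromosome 11 and rose with it, though by less. TRIM5 is the capsid-binding E3 ligase that blocks retroviruses soon after entry. TRIM5 stood at 18.6, 18.4 and 17.9 CPM in n.t. replicates 1, 2 and 3. After maltonis TRIM5 stood at 37.4, 39.6 and 40.5 CPM. The groups did not overlap. The mean of TRIM5 rose 2.14-fold, from 18.3 ± 0.371 to 39.2 ± 1.60 CPM (SD, n = 3 each), with a log2 fold change of 1.10 (SE 0.0685, FDR = 1.36e-06). Batch A gave it a log2 difference of 1.01, against 1.14 from batch B. The RefSeq promoter of TRIM5 is at chr11:5685025-5685324 on the minus strand (GRCh38.p14). It is shown because it holds the core of the interferon-stimulated response element, searched on both strands as the word GAAA, any 2 bases, and GAAA again. The match, in capitals, reads TTTCACTTTC at bases -27 to -18 from the start, so that the core is on the strand opposite to the gene. Of 35116 promoters in the RefSeq table, 1255 (3.57%) hold the core, and of 13322 promoters of tested genes, 399 (3.0%) hold it. The letters are not in the windows of SAMHD1, MOV10 and APOBEC3H. The other interferon element searched, TTCNNNGAA, occurs in 2689 promoters (7.66%), and in none of the windows of these 4 genes.
TRIM5: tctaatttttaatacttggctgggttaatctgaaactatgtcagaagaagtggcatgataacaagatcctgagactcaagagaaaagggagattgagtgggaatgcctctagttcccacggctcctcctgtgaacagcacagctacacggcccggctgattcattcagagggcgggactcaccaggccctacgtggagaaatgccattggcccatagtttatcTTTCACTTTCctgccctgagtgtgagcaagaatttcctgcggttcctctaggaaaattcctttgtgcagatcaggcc

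MOV10 rose by a similar amount to TRIM5. MOV10 is an RNA helicase that restricts LINE-1 retrotransposition and works with the RNA-induced silencing machinery. MOV10 stood at 27.6, 28.5 and 28.0 CPM in n.t. replicates 1, 2 and 3. After maltonis MOV10 stood at 75.4, 66.5 and 67.2 CPM. The groups did not overlap. The mean of MOV10 rose 2.48-fold, from 28.1 ± 0.449 to 69.7 ± 4.97 CPM (SD, n = 3 each), with a log2 fold change of 1.31 (SE 0.0723, FDR = 6.87e-07), just under the fold criterion. Batch A gave it a log2 difference of 1.45, against 1.24 from batch B. None of the 50-base words of MOV10 occurs in another counted gene. The first of its 3 RefSeq promoters, at chr1:112674189-112674488 on the plus strand (GRCh38.p14), is shown for comparison with that of TRIM5. It was 57.7% G or C with 13 CpG dinucleotides, beside 48.3% and 6 for TRIM5.
MOV10: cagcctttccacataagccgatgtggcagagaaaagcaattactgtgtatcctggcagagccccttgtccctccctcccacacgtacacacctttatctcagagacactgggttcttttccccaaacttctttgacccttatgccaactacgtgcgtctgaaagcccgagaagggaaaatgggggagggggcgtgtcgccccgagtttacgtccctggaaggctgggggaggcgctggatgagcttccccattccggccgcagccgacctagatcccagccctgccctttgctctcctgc

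**Figure D2:**
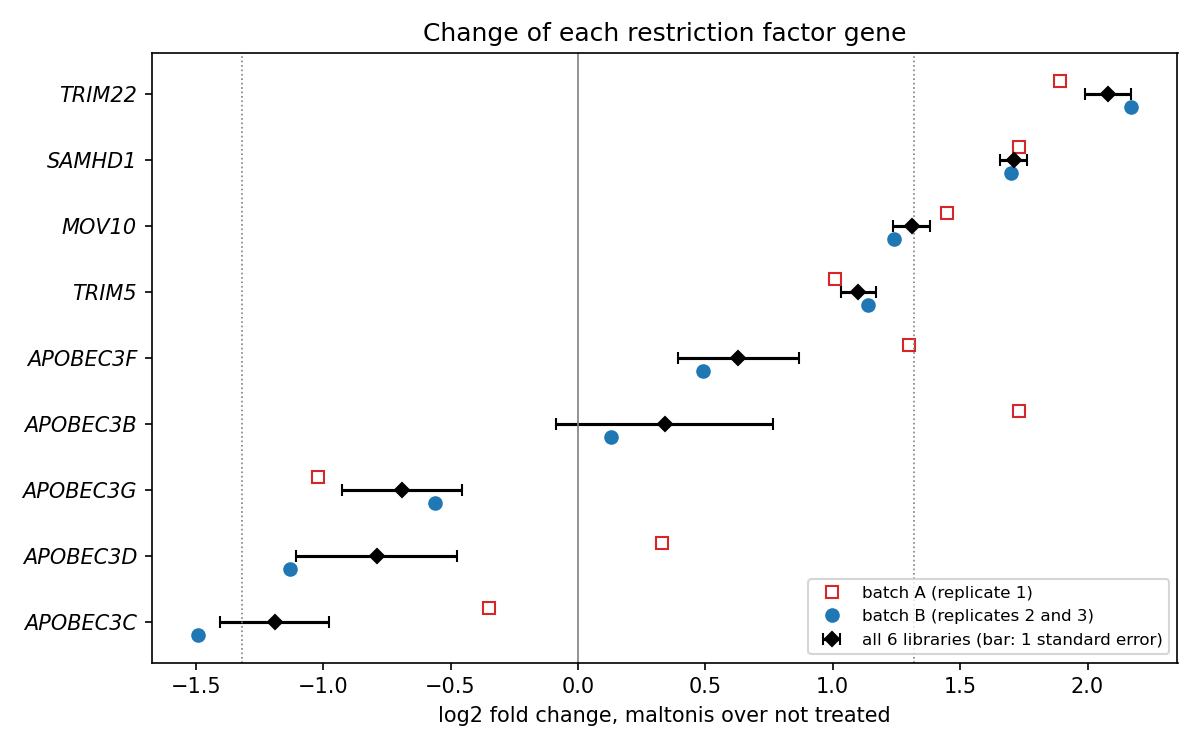
Log2 fold change (maltonis over n.t.) of the 9 tested genes. Diamonds with bars of 1 SE are the fit of all 6 libraries, squares the difference in batch A and circles that in batch B, and dotted lines mark the fold criterion of 2.5-fold in either direction. The batches lie close together for SAMHD1, TRIM5, TRIM22 and MOV10, and apart for APOBEC3B, APOBEC3C and APOBEC3D. APOBEC3F had 1.30 in batch A and 0.49 in batch B, and APOBEC3G had -1.02 and -0.56.

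The APOBEC3 genes form a cluster on chromosome 22, and none of them rose at FDR < 0.01. Their levels varied more between replicates than those of the other 4 genes, with n.t. replicate 1 often apart from n.t. replicates 2 and 3. APOBEC3C, a deaminase with a single catalytic domain, was the member that fell. APOBEC3C stood at 7.51, 13.2 and 13.0 CPM in n.t. replicates 1, 2 and 3. After maltonis APOBEC3C stood at 5.89, 4.65 and 4.65 CPM. The groups did not overlap, with the lowest n.t. library being the batch A library. The mean of APOBEC3C fell from 11.2 ± 3.23 to 5.06 ± 0.713 CPM (SD, n = 3 each), 2.28-fold lower, with a log2 fold change of -1.19 (SE 0.215, FDR = 0.000958). Batch A gave APOBEC3C a log2 difference of -0.35, against -1.49 from batch B, and the batch-by-treatment term, fitted after the data had been seen, was -1.14 (FDR = 0.0426). A share of 1.14% of its 50-base words occurs in another counted gene.

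APOBEC3B, a nuclear deaminase known for C-to-T mutation in tumour genomes, did not pass in either direction. APOBEC3B stood at 2.66, 11.0 and 13.7 CPM in n.t. replicates 1, 2 and 3. After maltonis APOBEC3B stood at 8.83, 13.0 and 13.7 CPM. The groups overlapped, and replicate 1 was the lowest library in both. The means of APOBEC3B were 9.09 ± 5.73 and 11.9 ± 2.65 CPM (SD, n = 3 each), with a log2 fold change of 0.34 (SE 0.426, FDR = 0.488). Batch A gave APOBEC3B a log2 difference of 1.73, against 0.13 from batch B, and the batch-by-treatment term was -1.61 (FDR = 0.0367). Without n.t. replicate 1 the log2 fold change of APOBEC3B was -0.03 (FDR = 0.873), and in batch B alone, without replicate 1 of either group, it was 0.12. Its values carry a further limit, since 37.8% of the 50-base words of APOBEC3B occur in another counted gene and it shares 348 exonic bases with APOBEC3A.

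APOBEC3G, the deaminase by which the family's action on HIV lacking Vif was found, was lower in each treated library without passing the threshold. APOBEC3G stood at 3.68, 3.01 and 2.29 CPM in n.t. replicates 1, 2 and 3. After maltonis APOBEC3G stood at 1.81, 1.40 and 2.27 CPM. The lowest n.t. and the highest treated library all but met. The means of APOBEC3G were 2.99 ± 0.692 and 1.83 ± 0.435 CPM (SD, n = 3 each), with a log2 fold change of -0.69 (SE 0.234, FDR = 0.0250). Batch A gave it a log2 difference of -1.02, against -0.56 from batch B.

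APOBEC3F and APOBEC3D, which like APOBEC3G carry a pair of deaminase domains and can enter virions, were near 1 CPM. APOBEC3F stood at 0.586, 1.13 and 1.18 CPM in n.t. replicates 1, 2 and 3 and at 1.45, 1.55 and 1.70 CPM after maltonis. All treated libraries of APOBEC3F lay above the n.t. libraries, at a log2 fold change of 0.63 (SE 0.238, FDR = 0.0388). APOBEC3F held 11, 41 and 39 counts in n.t. cells and 28, 52 and 48 after maltonis, so that its level rests on few reads. APOBEC3D stood at 0.906, 1.44 and 2.02 CPM in n.t. replicates 1, 2 and 3 and at 1.14, 0.656 and 0.923 CPM after maltonis. The groups of APOBEC3D overlapped, at a log2 fold change of -0.79 (SE 0.316, FDR = 0.0478). Batch A gave APOBEC3D a log2 difference of 0.33, against -1.13 from batch B, opposite in sign, and those of APOBEC3F were 1.30 and 0.49. Shares of 21.0% of the 50-base words of APOBEC3F and 17.9% of those of APOBEC3D occur in other counted genes, beside 7.24% for APOBEC3G.

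APOBEC3H, whose activity against HIV varies between human haplotypes, was nearly undetected. It held 0, 0 and 2 counts in n.t. replicates 1, 2 and 3 and 0, 1 and 0 counts after maltonis, all within the limit of 3 counts that a count of 0 allows. The remaining human family member, APOBEC3A, a deaminase typical of monocytes, held 1, 0 and 2 counts in n.t. cells and 3, 1 and 1 counts after maltonis. No difference was detectable for either at this depth.

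Summed over the 7 APOBEC3 genes, the libraries of the groups overlapped. The family sum was 15.4, 29.8 and 32.3 CPM in n.t. replicates 1, 2 and 3 and 19.3, 21.4 and 23.3 CPM after maltonis. Without APOBEC3B the sum was 12.7, 18.8 and 18.6 CPM in n.t. cells and 10.4, 8.32 and 9.58 CPM after maltonis. These groups did not overlap, which held for 76.6% of single tested genes. APOBEC3C, the member that fell, was the largest part of this sum in every library, and the sum was not tested. APOBEC3B took a larger part of the family counts after maltonis, and APOBEC3C a smaller one. APOBEC3B took 17.3% (95% Wilson interval 13.4 to 22.1), 36.8% (34.0 to 39.7) and 42.3% (39.4 to 45.3) of the family counts in n.t. replicates 1, 2 and 3. After maltonis its share was 45.8% (40.9 to 50.9), 61.0% (57.4 to 64.5) and 58.9% (55.1 to 62.6). The intervals cover counting error only, and the highest n.t. and lowest treated shares overlapped in their intervals. The share of APOBEC3C went from 48.8%, 44.4% and 40.3% to 30.6%, 21.8% and 19.9%, with no overlap. The ratio of APOBEC3B to APOBEC3C counts, which does not depend on how libraries are scaled, was 0.355, 0.829 and 1.05 in n.t. replicates 1, 2 and 3. After maltonis the ratio was 1.50, 2.80 and 2.95, higher in 3 of 3 libraries than in any n.t. library. Beside this and the share of APOBEC3C, the groups did not overlap in 76.6% of single tested genes. The ratio was 4.23-fold higher in batch A and 3.08-fold higher in batch B. No test was run on it, since it was formed after its parts had been seen. The larger log2 difference was that of APOBEC3B in batch A, which has 1 library per group, and that of APOBEC3C in batch B. In batch A APOBEC3B had a log2 difference of 1.73 and APOBEC3C of -0.35, while in batch B APOBEC3B had 0.13 and APOBEC3C -1.49. The batch-by-treatment term of neither gene passed FDR < 0.01.

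**Figure D3:**
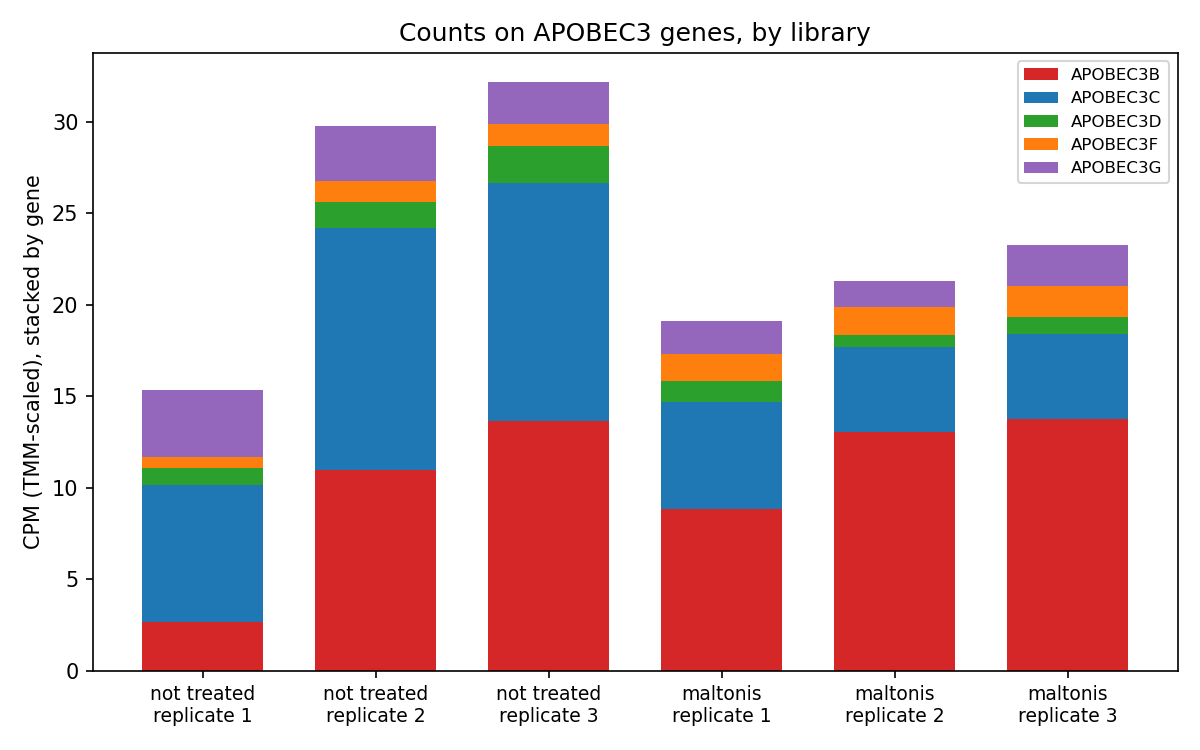
CPM (TMM-scaled) of 5 APOBEC3 genes stacked in each of the 6 libraries, n.t. replicates on the left and maltonis replicates on the right. APOBEC3A and APOBEC3H, at most 0.155 CPM each, are not drawn. The APOBEC3C segment is shorter in all 3 treated libraries, and the APOBEC3B segment is short in n.t. replicate 1.

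Per length of transcript, SAMHD1 stood above the other 9 genes in both groups. Levels between genes are given as RPKM, the CPM divided by the length of all annotated exons in kilobases. In n.t. cells SAMHD1 had 8.03 ± 0.0797 RPKM (SD, n = 3). It was followed by APOBEC3B at 4.8 ± 3.02, MOV10 at 4.31 ± 0.0690, APOBEC3C at 3.99 ± 1.15 and TRIM5 at 3.81 ± 0.0773 RPKM, of which each neighbouring pair overlapped in range. TRIM22 at 1.41 ± 0.0714 RPKM was below these in mean, though the lowest n.t. library of APOBEC3B (1.40 RPKM) lay within its range. Then came APOBEC3D at 0.575 and APOBEC3G at 0.550 RPKM, which overlapped. APOBEC3F at 0.298 RPKM overlapped in range with APOBEC3D, and APOBEC3H was last at 0.0161 RPKM. After maltonis the order began with SAMHD1 at 26.3 ± 0.595, MOV10 at 10.7 ± 0.763 and TRIM5 at 8.15 ± 0.332 RPKM, with no overlap between neighbours. APOBEC3B at 6.26 ± 1.40 and TRIM22 at 5.94 ± 0.471 RPKM overlapped in range. Next were APOBEC3C at 1.80 ± 0.253 RPKM, then APOBEC3F at 0.483, APOBEC3D at 0.358 and APOBEC3G at 0.336 RPKM, of which each neighbouring pair overlapped, and APOBEC3H at 0.00795 RPKM. The criteria of the study for an upregulated gene add an RPKM above 10 in treated cells. SAMHD1 met all of them, while TRIM22 fell short in RPKM and MOV10 in fold. With the length of the longest transcript in place of all exons, TRIM22 had 12.0 RPKM after maltonis and met them too, and APOBEC3B went from rank 2 to rank 4 in n.t. cells.

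Other genes of the same pathways were grouped in 6 lists. Among 31 further factors against retroviruses and retroelements, 29 were tested, of which 19 rose, 3 fell and 7 did not pass. The median log2 fold change of the 29 was 0.63. TRIM6 and TRIM34, which are among the 19, passed the count filter only through their treated libraries. A fall could not have been called for these genes. Under the same rule 31.9% of all tested genes were called higher and 32.1% lower, and no list was tested as a set. LGALS3BP, a secreted glycoprotein that lowers HIV infectivity, rose from 3.80 ± 0.123 to 60.9 ± 5.71 CPM (log2 fold change 4.0, SE 0.0993, FDR = 2.29e-08). SLFN5, a Schlafen family member, rose from 1.24 ± 0.108 to 10.1 ± 0.891 CPM (log2 fold change 3.01), and C19orf66 (SHFL), an inhibitor of ribosomal frameshifting, from 6.81 ± 0.703 to 50.2 ± 3.22 CPM (log2 fold change 2.88). The 3 that fell were the membrane proteins IFITM2, from 84.4 ± 22.6 to 29.8 ± 8.91 CPM (log2 fold change -1.51, FDR = 0.000363), and IFITM1, from 50.2 ± 5.98 to 31.8 ± 4.73 CPM (log2 fold change -0.66), and the capsid-binding GTPase MX2, from 129 ± 2.68 to 112 ± 2.62 CPM (log2 fold change -0.20, FDR = 0.00769). The call of MX2 was lost under 9 of 15 alternative settings.

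Of the APOBEC genes outside the APOBEC3 cluster, APOBEC2, a family member of muscle, rose from 0.598 ± 0.0326 to 2.08 ± 0.272 CPM (log2 fold change 1.79, SE 0.196, FDR = 4.26e-05). APOBEC1 held 0 counts in every library and APOBEC4 between 0 and 3 counts, and neither could be tested.

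SAMHD1 is among the genes whose mutation causes Aicardi-Goutières syndrome, an inherited interferon disease, and 7 others of that group were listed. Of these 7, 3 rose and 2 fell, beside 31.9% and 32.1% of all tested genes, with a median log2 fold change of 0.10. TREX1, a DNA exonuclease of the cytoplasm, rose from 6.27 ± 1.25 to 28.5 ± 2.58 CPM (log2 fold change 2.21, SE 0.139, FDR = 1.42e-06). IFIH1, a sensor of double-stranded RNA, rose from 20.2 ± 1.34 to 64.7 ± 1.95 CPM (log2 fold change 1.68), and LSM11, a histone mRNA processing factor, had a log2 fold change of 0.34 (FDR = 0.00940), a call lost under 7 of 15 alternatives. RNASEH2C, a subunit of the enzyme that cleaves RNA in RNA-DNA hybrids, fell from 85.9 ± 8.14 to 14.6 ± 0.188 CPM (log2 fold change -2.55, SE 0.0865, FDR = 6.56e-08). The catalytic subunit RNASEH2A had a log2 fold change of -0.63 (FDR = 0.000156), and RNASEH2B one of 0.10 (FDR = 0.159).

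Regulators of SAMHD1 and genes of deoxynucleotide supply gave 2 higher, 3 lower and 7 not passing of 12. The shares over all tested genes were 31.9% higher and 32.1% lower. The median log2 fold change of the 12 was -0.15. RRM2B, a small subunit of ribonucleotide reductase, rose from 70.4 ± 0.920 to 142 ± 15.6 CPM (log2 fold change 1.01), and the large subunit RRM1 from 234 ± 6.57 to 327 ± 12.3 CPM (log2 fold change 0.49). CDKN1A, an inhibitor of the cyclin-dependent kinases that phosphorylate SAMHD1, fell from 21.3 ± 1.44 to 1.65 ± 0.425 CPM (log2 fold change -3.73, SE 0.156, FDR = 1.72e-07). CDK6 fell from 143 ± 7.02 to 66.4 ± 1.80 CPM (log2 fold change -1.11), and the cyclin CCNA2 from 324 ± 16.0 to 208 ± 4.11 CPM (log2 fold change -0.64). Among the 7 not passing were RRM2 (log2 fold change -0.15, FDR = 0.128), CDK1 (-0.17, FDR = 0.0701) and CDK2 (-0.14, FDR = 0.0441).

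Partners of MOV10 and TRIM5 gave none higher, 5 lower and 7 not passing of 12 tested. The shares over all tested genes were 31.9% higher and 32.1% lower. The median log2 fold change of the partners was -0.26. The helicase HELZ fell from 107.5 ± 14.6 to 41.8 ± 0.688 CPM (log2 fold change -1.36, SE 0.0979, FDR = 3.14e-06). The Argonaute gene AGO2 fell from 49.0 ± 6.82 to 31.3 ± 2.52 CPM (log2 fold change -0.65), and UBE2N, an E2 enzyme used by TRIM5, from 255 ± 3.67 to 172 ± 9.84 CPM (log2 fold change -0.57).

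Genes derived from retroelements are few in the files. Of 12 listed, 9 were found and 3 passed the count filter, and all 3 rose, beside 31.9% of all tested genes. ERV3-1, an envelope gene of an endogenous retrovirus, rose from 8.13 ± 0.506 to 31.1 ± 0.914 CPM (log2 fold change 1.94, SE 0.0807, FDR = 1.69e-07). ERVFRD-1, the envelope gene of syncytin-2, rose from 1.22 ± 0.218 to 5.38 ± 0.618 CPM (log2 fold change 2.09), and ERVK13-1 from 7.12 ± 0.590 to 16.6 ± 0.590 CPM (log2 fold change 1.22). Counts are per gene symbol, and RNA of LINE-1 and other repeat families was not analysed here.

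**Figure D4:**
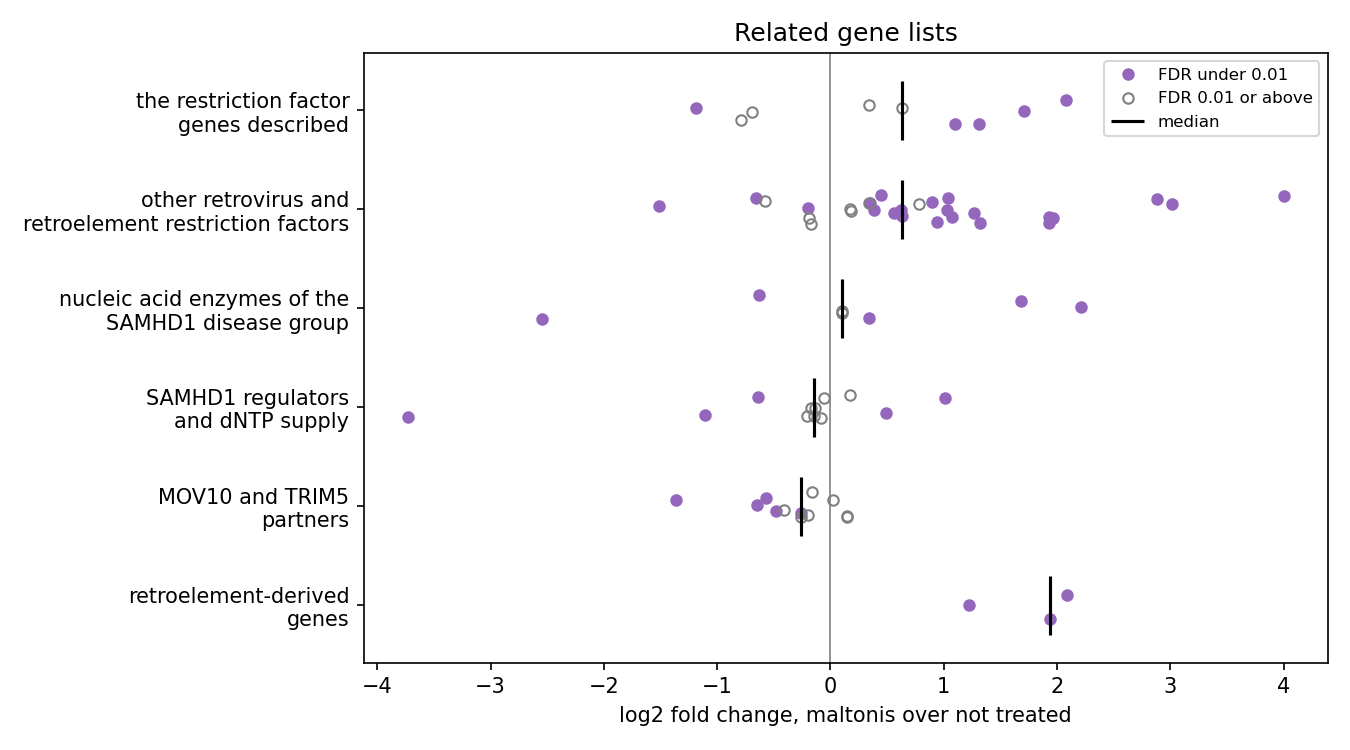
Log2 fold change (maltonis over n.t.) of each tested gene of the members and of 5 lists, filled where FDR < 0.01 and open otherwise, with a black line at the median. The members and the other restriction factors both have a median of 0.63, while the partners of MOV10 and TRIM5 have one of -0.26. The members are spread from -1.19 to 2.08 and the other restriction factors from -1.51 to 4.0. The list that holds APOBEC2, with 1 tested gene, is not drawn.

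The tested genes nearest to the members moved in different directions at the 4 loci. The 3 nearest tested genes on either side of each locus, and tested genes within a locus, gave 26. Of these 26, 12 rose and 9 fell. Genes that were not tested were passed over, so the neighbours need not adjoin a member. Some of the 26, RRM1, TRIM6 and TRIM34 among them, are counted in the lists above too. Of all tested genes, 31.9% were called higher and 32.1% lower. Each locus gave only 6 to 8 neighbours, and no count was tested against these shares. Around TRIM5 and TRIM22, 8 of 8 rose, but CNGA4, TRIM6 and TRIM34 passed the count filter only through their treated libraries. A fall could not have been called for these genes. Leaving them out, the log2 fold changes lay between 0.49 (RRM1) and 1.70 (SMPD1). Inside that locus TRIM6 went from 6, 9 and 9 counts in n.t. cells to 17, 40 and 29 counts after maltonis. TRIM34 went from 2, 7 and 7 counts to 14, 21 and 23 counts. Beyond it TRIM68 rose from 9.65 ± 1.26 to 28.5 ± 0.22 CPM (log2 fold change 1.56) and SMPD1, the acid sphingomyelinase gene, from 4.5 ± 0.628 to 14.6 ± 1.31 CPM (log2 fold change 1.70). CNGA4 went from 0 counts in each n.t. library to 15, 22 and 24 counts.

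Beside the APOBEC3 cluster, 0 of 6 neighbours rose and 4 fell, against shares of 31.9% and 32.1% over all tested genes. NPTXR, which is among the 4, passed the count filter only through its n.t. libraries. A rise could not have been called for it. CBX6, a Polycomb protein, fell from 67.5 ± 5.55 to 7.26 ± 1.00 CPM (log2 fold change -3.23, SE 0.114, FDR = 7.91e-08), and SYNGR1 from 2.34 ± 0.319 to 0.777 ± 0.182 CPM (log2 fold change -1.61). NPTXR went from 18, 39 and 38 counts to 1, 5 and 1 counts. Beside SAMHD1, 2 of 6 rose and 3 fell, with TLDC2, the gene that overlaps it, at a log2 fold change of 1.92 (FDR = 3.80e-05). Beside MOV10, 2 of 6 rose and 2 fell, with CTTNBP2NL rising from 3.15 ± 0.567 to 14.3 ± 1.01 CPM (log2 fold change 2.15, FDR = 1.40e-06).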

How the data were processed

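RNA-seq was analysed from 6 libraries of NB4 cells, 3 n.t. and 3 treated, which the study describes as biological replicates. The deposited values are raw counts per gene symbol that the authors made with HTSeq. TopHat, Bowtie2 and the hg19 build are named in the submitters' processing notes, and versions, annotation and strand setting are not given in the sources used here. Counts were tested with edgeR 4.0.16 (R 4.3.3) after filterByExpr and TMM scaling, by the quasi-likelihood test with no covariates. Genes were called at FDR < 0.01, and SE is the log2 fold change divided by the root of F. Lengths and shared 50-base words came from GENCODE on GRCh38, matched by symbol for 20195 genes and by synonym for 1453, and promoters from RefSeq (GRCh38.p14), which held 4 of the 10 members. Library totals were 19385279, 38205483 and 34479562 counts (n.t. replicates 1 to 3) and 18492154, 32229832 and 27160576 (maltonis), and replicates differed by more than sampling noise (chi-square per degree of freedom 4.15 to 33.1). The fit was also run on simulated counts. That simulation held no batch difference and far fewer changed genes than were called here, so it does not cover these features.

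Deviations of same-numbered libraries from their group means correlated at 0.458, 0.17 and 0.248 for numbers 1, 2 and 3, which met the rule for pairing (over 0.1). Crossed numbers 2 and 3 also reached 0.25 and 0.286, and the labels name no shared culture or day, so that the pairing comes from the data. The pairing enters as an alternative. Alternatives also covered scaling, filtering, the tool (DESeq2 1.42.0), batch, thresholds and leaving out libraries.

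The members and lists were chosen with earlier results of these data known. Named genes were the 10 members, APOBEC3A, up to 3 genes with the largest and 3 with the smallest log2 fold change past the FDR in each list, every gene of a list of 5 or fewer, and neighbours past the FDR and the fold criterion. CNGA4, TRIM6, TRIM34 and NPTXR are given as counts. RNASEH2B, RRM2, CDK1 and CDK2 were named besides, after their values were seen. Some marker and list genes are not reported here.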

Additional observations from a re-analysis of the deposited data

How the results depend on the processing

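The calls of SAMHD1, TRIM5, TRIM22, MOV10 and APOBEC3C kept their direction and stayed past the threshold under all 15 alternatives, with log2 fold changes of 1.68 to 1.83, 1.05 to 1.22, 2.01 to 2.20, 1.23 to 1.43 and -1.49 to -1.05. The count of members that rose stayed within 1.5 times its value of 4. The count that fell, 1 as reported, was 2 with a likelihood ratio test (APOBEC3G added), 2 in batch B alone (APOBEC3D added) and 3 at an FDR under 0.05 (both added), and 1 to 2 when a library was left out, the 2 being without n.t. replicate 3 (APOBEC3G, FDR = 0.00996). With the fold criterion the count that fell, 0 as reported, was 1 in batch B alone and 0 to 1 when a library was left out, the 1 being APOBEC3C without n.t. replicate 1 or maltonis replicate 1. APOBEC3B, which passed in no setting, reversed to -0.03 without n.t. replicate 1 and was 0.12 in batch B alone, in a range of -0.03 to 0.72. APOBEC3F passed with the likelihood ratio test (FDR = 0.00922). The replicate block, by which same-numbered libraries are paired, changed no call of a member (4 higher, 1 lower, and APOBEC3B at 0.43 with FDR = 0.092), and in the other restriction factors it gave 20 higher and 4 lower, beside 19 and 3. Scaling by total counts or upper quartile moved the median of all genes from 0.01 to 0.13 and 0.10, and MOV10 with it to 1.43 and 1.40, past the fold criterion. Of 345 values of 23 other named genes, all from the lists, 329 kept their call, 16 lost it (MX2 and LSM11) and none turned. The genes named only as neighbours of the loci, and RNASEH2B, RRM2, CDK1 and CDK2, were not among the 23. APOBEC3A and APOBEC3H were below what this depth can compare. The batch B fit and the batch-by-treatment term were chosen after seeing the data.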

Other observations

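PEG10, a gene of retrotransposon origin on the list of retroelement-derived genes and named here after its values were seen, held 0 counts in each n.t. library and 11, 8 and 13 counts after maltonis. It did not pass the count filter and was not tested.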
